A study of Mus musculus with 2 samples.

Results

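The mitochondrial genome of the mouse carries 37 annotated genes, and fragments of their RNA were counted in small RNA libraries of mesenchymal stem cells (MSCs) with and without Dicer. A read was taken as a member when it had at least 18 nt and lay, in sense and without mismatch, within 1 of the 37 GENCODE genes whose symbol begins with mt-. These are 2 rRNA, 22 tRNA and 13 coding genes, out of 55450 genes in the annotation. The members took 93775 of 6291599 reads (1.49%) in the Dicer -/- library and 21888 of 9943989 reads (0.220%) in the Dicer f/f library. tRNA reads that end in CCA and match a gene only without those 3 letters were counted apart. Both libraries came from immortalized clonal MSC lines of the C57BL/6 strain, grown without treatment: 1 library from a Dicer -/- line, the knockout, and 1 from a Dicer f/f line, which the labels call wild type. How many clones stand behind a library is not given, so genotype and clone cannot be told apart. Small RNA of 15 to 50 nt had been cut from a gel, so the counts describe fragments in that size range and not the full-length rRNAs, tRNAs or mRNAs.

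Mitochondrial DNA is copied into long precursor RNAs from both strands. The tRNAs sit between the rRNAs and mRNAs, and cutting each tRNA out at its 5′ end by RNase P and at its 3′ end by RNase Z (Elac2) also frees the RNAs on either side. The enzyme Trnt1 then adds CCA, which is not in the DNA, to the 3′ end of each tRNA, and Mtpap adds A to the 3′ ends of mRNAs. Dicer cuts precursor hairpins into mature miRNAs in the cytoplasm.

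The reads that the results turn on are shown first, in DNA letters from 5′ to 3′. For the rRNAs the first 60 bases of the gene are given, and capitals mark the read that was most abundant in both libraries.
mt-Rnr1: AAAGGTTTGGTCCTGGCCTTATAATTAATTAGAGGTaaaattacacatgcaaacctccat
mt-Rnr2: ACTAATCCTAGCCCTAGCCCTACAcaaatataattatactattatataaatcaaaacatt
For the 6 tRNA genes with most reads, CCA-ended reads included, the whole gene is given with the added cca at its end, and capitals mark the read with the highest count over both libraries.
mt-Th: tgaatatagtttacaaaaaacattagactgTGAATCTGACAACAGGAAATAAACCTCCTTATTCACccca
mt-Tv: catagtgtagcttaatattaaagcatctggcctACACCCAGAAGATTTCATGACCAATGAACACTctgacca
mt-Ts2: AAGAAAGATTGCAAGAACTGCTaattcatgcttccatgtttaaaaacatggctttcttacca
mt-Te: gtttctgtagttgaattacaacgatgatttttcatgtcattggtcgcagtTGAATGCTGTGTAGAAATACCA
mt-Tm: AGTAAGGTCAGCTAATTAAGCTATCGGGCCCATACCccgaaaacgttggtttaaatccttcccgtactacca
mt-Tw: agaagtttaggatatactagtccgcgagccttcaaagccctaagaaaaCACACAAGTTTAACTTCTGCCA
The leading read of both rRNAs and of mt-Ts2 and mt-Tm began at the first base of the gene. That of mt-Th and mt-Tv began inside the anticodon, and that of mt-Te and mt-Tw ended in the added CCA.

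Each genotype was sequenced once, so differences are given without a test or a p-value. Intervals are at 95% and cover counting error alone, with every read taken as independent. PCR copies are not independent molecules, so the intervals may be too narrow even for that error. A count of 0 allowed up to 0.477 CPM (counts scaled to an equal total of all reads in the file) in Dicer -/- and 0.302 CPM in Dicer f/f. Much of each library's composition differed: reads within miRNA hairpins were 2.61% of the Dicer -/- library and 59.7% of the Dicer f/f library, and this difference enters the total over which the CPM of any other RNA is taken. Reads of snoRNAs and snRNAs were 4.61% of the Dicer -/- library and 1.07% of the Dicer f/f library, and ratios are therefore also given per snoRNA and snRNA read. Dicer1 itself gave 66 reads in Dicer -/- and 26 in Dicer f/f, reads shared with other genes included. The labels do not state which exon was deleted, so this did not check the genotype. All 10 mesenchymal markers were detected, with 2201 reads in Dicer -/- and 260 in Dicer f/f. Blood markers summed to 84 and 81 reads and epithelial markers to 70 and 40 reads in Dicer -/- and Dicer f/f. Of the blood markers, Itgam gave 49 and 74 reads, Ptprc 26 and 3 and Cd34 9 and 4. In Dicer f/f, Itgam thus had more reads than the highest mesenchymal marker, Fn1, with 70. Of the epithelial markers, Cdh1 gave 48 and 15 reads and Epcam 22 and 25. Lyz2, Hbb-bs, Hba-a1, Krt8 and Krt18 were at 0 in both libraries. Endothelial markers had 812 reads in Dicer -/- and 416 in Dicer f/f, of which Pecam1 gave 790 and 410, while Cdh5 was at 0 in both. Their part in the results was not tested, and in such bulk libraries fewer cells of a type and less RNA per cell cannot be told apart.

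All 3 classes of mitochondrial RNA had more fragments in CPM in Dicer -/-. Fragments of the rRNAs made up 11348 CPM in Dicer -/- and 1603 CPM in Dicer f/f, a 7.08-fold higher level (6.96 to 7.20). For tRNA genes, full matches summed to 2471 CPM in Dicer -/- and 507 CPM in Dicer f/f, 4.87-fold higher (4.72 to 5.03). Fragments of the coding genes had 1086 CPM in Dicer -/- and 90.7 CPM in Dicer f/f, 11.98-fold higher (11.2 to 12.9). The make-up of the mitochondrial reads differed accordingly. rRNA was 76.1% of them in Dicer -/- and 72.8% in Dicer f/f, tRNA was 16.6% and 23.03%, and coding RNA was 7.29% and 4.12%.

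The higher CPM was shared with most other genes. At least 100 reads over both libraries were found for 34 of the 37 genes, and all 34 were more than 2-fold higher in CPM in Dicer -/-. The same held for 79.0% of all 7160 genes with as many reads, and 6.54% were more than 2-fold lower. Without genes annotated as miRNAs these shares were 82% and 3.07%. Since 33 of the members reached 100 reads in Dicer -/- alone and 11 in Dicer f/f alone, most passed the minimum through the library where they were higher, and their count supports nothing by itself. The 3 genes under 100 reads, mt-Tw, mt-Tl2 and mt-Tt, were 6.32-fold, 4.06-fold and 3.28-fold higher in Dicer -/-. The median log2 ratio was 3.48 over the 34 members and 2.13 over the 7160 genes.

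Per snoRNA and snRNA read, 23 of the 34 members were more than 2-fold higher in Dicer -/-, 11 differed by less than 2-fold and 0 were below 0.5. Among all genes with at least 100 reads, 11.4% were more than 2-fold higher on this scale and 22% lower. Here the sums of the classes came apart, while the medians by gene did not. Coding fragments were 2.79-fold higher in Dicer -/- (2.60 to 2.99), rRNA fragments 1.65-fold higher (1.62 to 1.68) and full tRNA matches 1.13-fold higher (1.10 to 1.17). CCA-ended tRNA reads were lower, at 0.379 of their Dicer f/f level (0.367 to 0.392). Full and CCA-ended tRNA reads together were at 0.687 (0.673 to 0.703). By gene, the median ratio on this scale was 2.30 over the 13 coding genes and 2.42 over the 2 rRNA genes. It was 2.62 over the 19 tRNA genes with at least 100 reads, of which 12 were more than 2-fold higher. The 2 tRNA genes with most full matches stood low, mt-Th at 0.544 and mt-Tv at 0.736, and weigh on the tRNA sum. Relative to fragments of nuclear mRNAs and lncRNAs, 20 of the 34 members were more than 2-fold higher, 13 within 2-fold and 1, mt-Th, lower, against 8.99% higher and 24.4% lower among all genes.

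**Figure D1:**
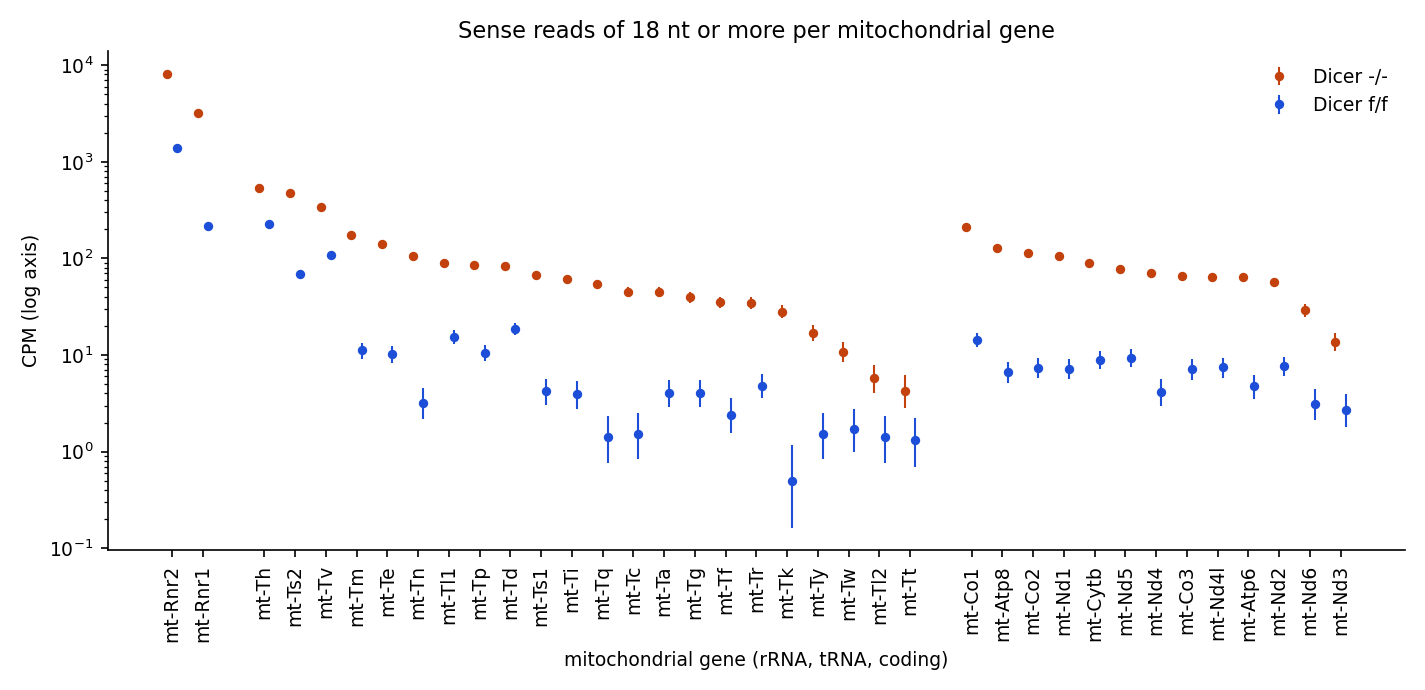
CPM (log axis) of sense reads for each of the 37 mitochondrial genes, grouped as rRNA, tRNA and coding genes and ordered by the Dicer -/- level; orange points are Dicer -/-, blue points Dicer f/f, and bars are exact Poisson 95% intervals. Every gene is higher in Dicer -/- in CPM, by between 2.34-fold (mt-Th) and 55.95-fold (mt-Tk, 5 reads in Dicer f/f).

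**Figure D2:**
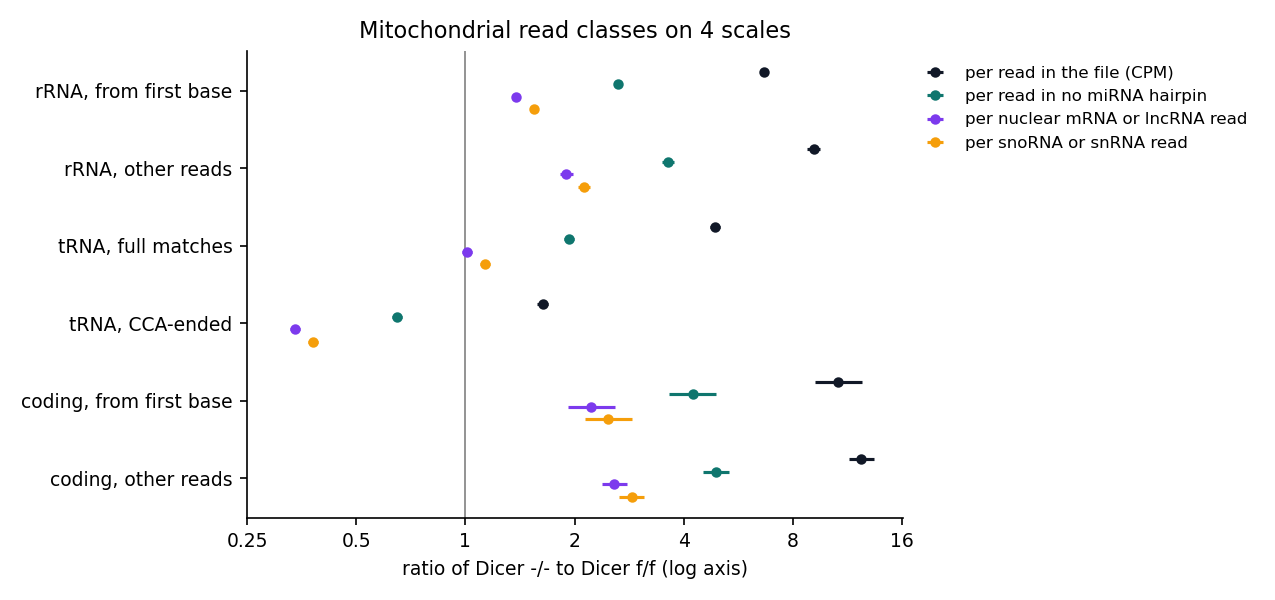
Ratio of Dicer -/- to Dicer f/f (log axis) for 6 groups of mitochondrial reads on 4 scales, with exact conditional 95% intervals of counting error; colours mark the scale. All 6 groups lie above 1 in CPM, while CCA-ended tRNA reads lie at 0.379 per snoRNA and snRNA read.

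The rRNAs gave most of the fragments. mt-Rnr2 encodes the 16S rRNA of the large mitochondrial ribosome subunit (chromosome M, 1094 to 2675, plus strand, GRCm38) and had 51134 reads (8127 CPM) in Dicer -/- and 13808 reads (1389 CPM) in Dicer f/f, 5.85-fold higher (5.74 to 5.96). mt-Rnr1 encodes the 12S rRNA of the small subunit (70 to 1024, plus strand) and had 20261 reads (3220 CPM) in Dicer -/- and 2137 reads (215 CPM) in Dicer f/f, 14.98-fold higher (14.3 to 15.7). The intervals of the 2 ratios did not overlap. Per snoRNA and snRNA read the ratios were 1.36 for mt-Rnr2 (1.34 to 1.39) and 3.49 for mt-Rnr1 (3.33 to 3.65). Per length, mt-Rnr2 had 5137 CPM per kb in Dicer -/- and 878 in Dicer f/f, and mt-Rnr1 3372 in Dicer -/- and 225 in Dicer f/f.

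The difference between the rRNAs lay mainly in reads from their 5′ ends. Reads from the first base were 78.6% of mt-Rnr2 reads in Dicer -/- and 86.8% in Dicer f/f, and 74.1% of mt-Rnr1 reads in Dicer -/- and 53.9% in Dicer f/f. They numbered 40202 in Dicer -/- and 11988 in Dicer f/f for mt-Rnr2, and 15007 in Dicer -/- and 1152 in Dicer f/f for mt-Rnr1. Among these, there were 2.68 mt-Rnr2 reads for each mt-Rnr1 read in Dicer -/- (2.63 to 2.73) and 10.4 in Dicer f/f (9.795 to 11.1). Among reads that start elsewhere, there were 2.08 in Dicer -/- (2.01 to 2.15) and 1.85 in Dicer f/f (1.71 to 1.999). In CPM, first-base reads were 20.6-fold higher in Dicer -/- for mt-Rnr1 (19.4 to 21.9) and 5.30-fold for mt-Rnr2 (5.19 to 5.41). Other reads were 8.43-fold higher for mt-Rnr1 and 9.49-fold for mt-Rnr2. The split into first-base and other reads was made after the values had been seen.

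No other start came near the first base. In mt-Rnr1 the next by reads summed over both libraries, base 402, held 0.43% of reads in Dicer -/- and 2.25% in Dicer f/f. In mt-Rnr2 it was base 1150, with 1.14% in Dicer -/- and 0.15% in Dicer f/f. Within single libraries the next start was another in mt-Rnr1 in Dicer -/-, base 674 with 0.47%, and in mt-Rnr2 in Dicer f/f, base 1143 with 0.77%. Of the mt-Rnr2 reads that start after the first base, 26.8% in Dicer -/- and 23.2% in Dicer f/f started between bases 1101 and 1200. In mt-Rnr1 bases 601 to 700 held 20.4% of such reads in Dicer -/- and 18.4% in Dicer f/f.

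**Figure D3:**
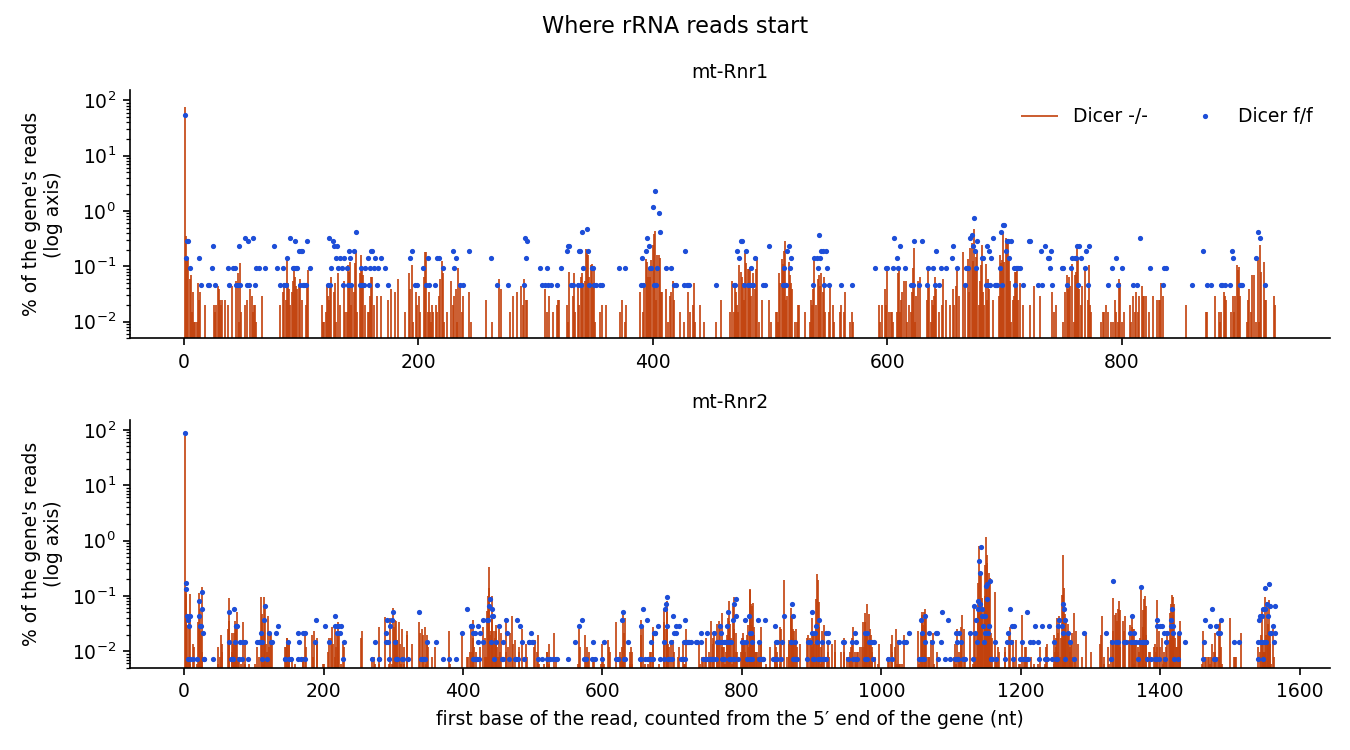
Share of each rRNA gene's reads (%, log axis) by the base at which they start, counted from the 5′ end of the gene; orange lines are Dicer -/- and blue points Dicer f/f. In both genes and both libraries the first base stands far above the rest, with 74.1% (Dicer -/-) and 53.9% (Dicer f/f) in mt-Rnr1 and 78.6% (Dicer -/-) and 86.8% (Dicer f/f) in mt-Rnr2.

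The 5′ fragments ended at preferred places. For mt-Rnr2 the leading read was the 24-nt one in capitals above, with 10700 reads in Dicer -/- and 2526 in Dicer f/f, 6.69-fold higher (6.41 to 6.99). First-base reads of 20 to 22 nt were 30.1% of all mt-Rnr2 first-base reads in Dicer -/- and 45.5% in Dicer f/f. For mt-Rnr1 the leading read was the longest that the files hold, 36 nt, with 6849 reads in Dicer -/- and 706 in Dicer f/f, 15.3-fold higher (14.2 to 16.6). A read of 36 nt can come from a longer fragment. The 30-nt form of mt-Rnr1 was the length most unequal between the libraries, with 1607 reads (10.7% of first-base reads) in Dicer -/- and 26 (2.26%) in Dicer f/f, 97.7-fold higher (66.4 to 150.01), among the lengths with at least 20 reads in each library; it was picked out after the values had been seen. Its 18-nt form had 28 reads in Dicer -/- and 40 in Dicer f/f.

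At the other end of mt-Rnr2, reads often carried the first 6 bases of the neighbouring gene mt-Tl1 and then an A that differs from that gene. Below, the last 24 bases of mt-Rnr2 are in lower case and the first 6 bases of mt-Tl1 in capitals (chrM:2652-2681, plus strand, GRCm38).
mt-Rnr2 end: acaccctctaacctagagaaggttATTAGG
Reads that hold the last 12 bases of mt-Rnr2 numbered 3374 in Dicer -/- and 1988 in Dicer f/f. In 40.3% of them in Dicer -/- and 41.1% in Dicer f/f these 6 bases of mt-Tl1 were followed by an A that the genome does not have there. Of the 1359 such reads in Dicer -/- and 817 in Dicer f/f, 331 and 391 ended at this A, and the others went on with further letters. All these reads were picked by the 12 bases, and no genome sequence was searched. Whether they came from this end, from another place in the genome or hold letters left by trimming was not tested. A further 22.1% in Dicer -/- and 28.6% in Dicer f/f had only A after the last annotated base; mt-Tl1 itself begins with A, so a single A is either genomic or added. Reads that stopped at the annotated last base were 4.001% in Dicer -/- and 4.17% in Dicer f/f. This end was examined after its values had been seen. Sense reads across other borders of adjoining genes on the same strand were few, 62 in Dicer -/- and 12 in Dicer f/f. Across the mt-Rnr2 and mt-Tl1 border there were 687 and 566. Most of these can pass the border by a single A, since 524 and 463 reads had only that after the last annotated base. Reads with genomic letters further into mt-Tl1 numbered 161 and 99. Only annotated bases were searched, so borders with unannotated bases between the genes could give no read. Antisense to mt-Co3 and mt-Tg, 168 reads in Dicer -/- and 13 in Dicer f/f crossed the border of these genes.

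Fragment lengths differed between classes and, within rRNA and tRNA, between libraries. rRNA reads of 18 to 23 nt were 30.3% of the class in Dicer -/- and 46.8% in Dicer f/f, and those of 36 nt 22.9% and 15.6%. In the sum of full tRNA matches the order was the other way: 18 to 23 nt made up 25.4% in Dicer -/- and 13.7% in Dicer f/f, and 36 nt 37.8% and 60.9%. mt-Th, nearly all at 36 nt, gave 3334 of these 15545 reads in Dicer -/- and 2254 of 5041 in Dicer f/f. Single genes went both ways. The share at 18 to 23 nt was lower in Dicer -/- for mt-Te (32.3% against 49.5%) and mt-Tp (33.7% against 51.4%). It was higher in Dicer -/- for mt-Tv (8.05% against 4.91%) and mt-Ts2 (62.6% against 51.7%). Coding fragments showed no peak below 36 nt and differed little, with 34.9% in Dicer -/- (33.8 to 36.1) and 36.9% in Dicer f/f (33.8 to 40.2) at 18 to 23 nt. CCA-ended reads were mostly short in both libraries, 57.4% in Dicer -/- and 62.0% in Dicer f/f being 18 to 23 nt long. In the libraries as a whole, reads of 36 nt were 14.4% of all reads in Dicer -/- and 1.68% in Dicer f/f. Fragments of nuclear mRNAs and lncRNAs of 36 nt were 7.97% of their class in Dicer -/- and 2.88% in Dicer f/f. Those of 18 to 23 nt were 50.8% in Dicer -/- and 78.4% in Dicer f/f. Among snoRNA and snRNA reads, 18 to 23 nt made up 17.3% in Dicer -/- and 31.6% in Dicer f/f. The lower share of short reads in Dicer -/- was thus not particular to mitochondrial rRNA.

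**Figure D4:**
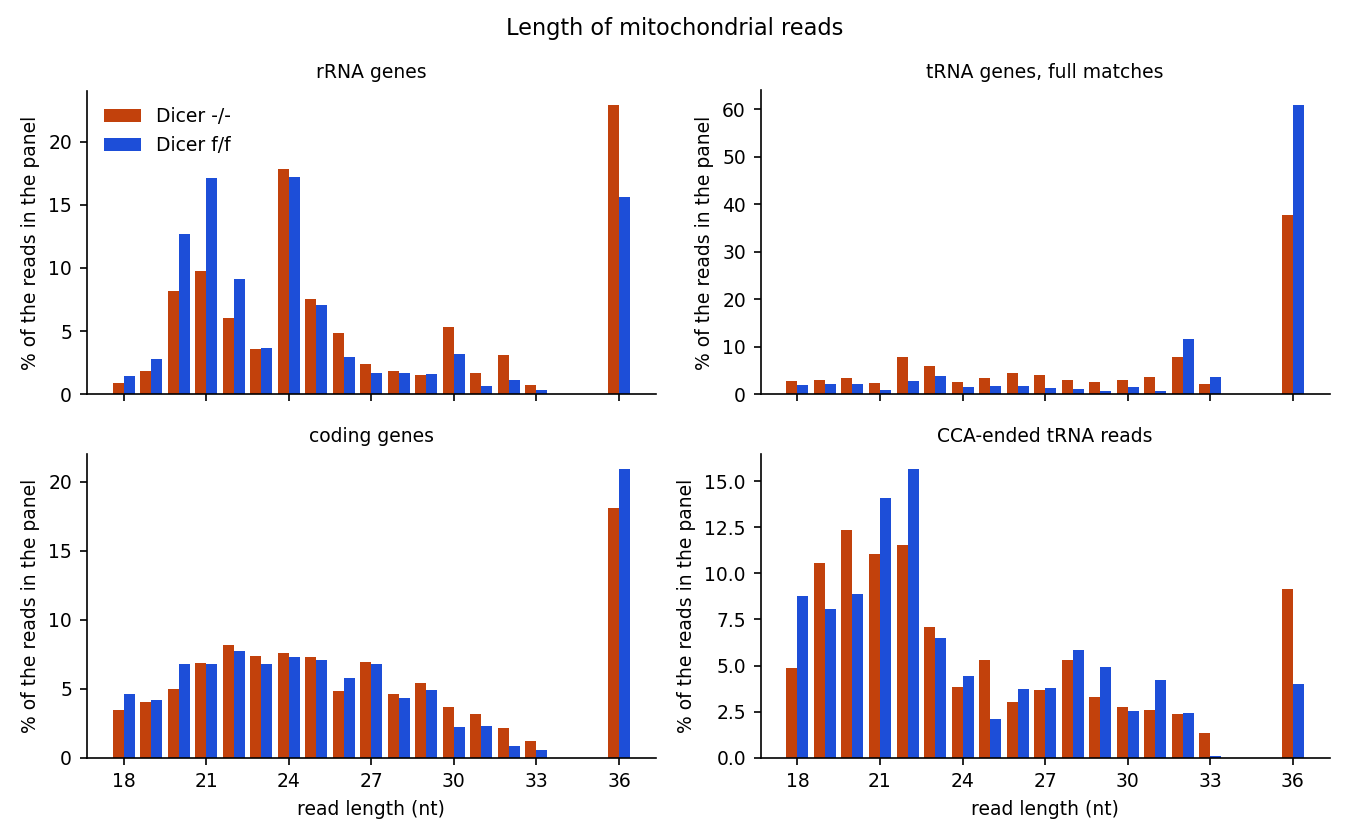
Read length (nt) as a percentage of the reads in each panel, for rRNA genes, tRNA genes (full matches), coding genes and CCA-ended tRNA reads; orange bars are Dicer -/- and blue bars Dicer f/f. rRNA reads peak at 24 nt (17.8% in Dicer -/-, 17.2% in Dicer f/f), at 36 nt and at 21 nt (9.73% in Dicer -/-, 17.1% in Dicer f/f), tRNA matches at 36 nt (37.8% in Dicer -/-, 60.9% in Dicer f/f), and CCA-ended reads between 18 and 23 nt.

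Among tRNA genes, mt-Th (histidine; chromosome M, 11546 to 11612, plus strand) had most full matches and the lowest ratio of those with at least 100 reads. It had 3334 reads (529.9 CPM) in Dicer -/- and 2254 reads (227 CPM) in Dicer f/f, 2.34-fold higher (2.22 to 2.47), and per snoRNA and snRNA read 0.544 of its Dicer f/f level (0.515 to 0.574). Nearly all were the single read shown above, with 3149 copies in Dicer -/- and 2206 in Dicer f/f. It starts at base 31, the second base of the anticodon, and reaches the 36-nt limit 1 base before the end of the gene.

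mt-Tv (valine; 1025 to 1093, plus strand, between the rRNA genes) had 2162 reads (344 CPM) in Dicer -/- and 1080 reads (109 CPM) in Dicer f/f, 3.16-fold higher (2.94 to 3.41). Its leading read also starts in the anticodon, at base 34, and had 938 copies in Dicer -/- and 549 in Dicer f/f. This read stops at base 65, just before the letters CTG of the gene. In the libraries as a whole, 16.2% of 36-nt reads in Dicer -/- and 10.4% in Dicer f/f ended in CTG. Of 36-nt mitochondrial reads, 0.0341% in Dicer -/- and 0.0348% in Dicer f/f did. These had to match a gene over all their letters, so a read with an added CTG was left out by the rule. Their low share therefore cannot be set against that of the libraries. Whether trimming of CTG shortened this read was not tested.

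mt-Ts2 (serine; 11613 to 11671, plus strand, next to mt-Th) was fragmented at its 5′ end instead. It had 2961 reads (471 CPM) in Dicer -/- and 692 reads (69.6 CPM) in Dicer f/f, 6.76-fold higher (6.22 to 7.36), and 87.7% of these in Dicer -/- and 86.0% in Dicer f/f began at the first base. The 22-nt read shown above had 863 copies in Dicer -/- and 96 in Dicer f/f, and the 23-nt read 568 in Dicer -/- and 150 in Dicer f/f. The lead thus passed between neighbouring lengths, 22 nt in Dicer -/- and 23 nt in Dicer f/f.

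The next tRNA genes by full matches varied in their ratio. mt-Tm (methionine; 3845 to 3913, plus strand) had 1107 reads in Dicer -/- and 111 in Dicer f/f, 15.8-fold higher (12.96 to 19.3). mt-Te (glutamate; 14071 to 14139, minus strand) had 877 reads in Dicer -/- and 101 in Dicer f/f, 13.7-fold higher (11.2 to 17.03). mt-Td (aspartate) had 527 and 186 reads in Dicer -/- and Dicer f/f, 4.48-fold higher (3.78 to 5.32), and mt-Tl1 (leucine) 558 and 154 reads, 5.73-fold higher (4.78 to 6.89). mt-Tn (asparagine; 5089 to 5159, minus strand) had 669 reads in Dicer -/- and 32 in Dicer f/f, 33.04-fold higher (23.2 to 48.7).

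Among genes with at least 100 reads the lowest ratios, of mt-Th, mt-Tv and mt-Td, belonged to genes whose full matches mostly start in the anticodon loop. The highest were those of mt-Tk (lysine; 177 reads in Dicer -/-, 5 in Dicer f/f), at 55.95-fold (23.5 to 174), of mt-Tq (glutamine; 338 in Dicer -/-, 14 in Dicer f/f), at 38.2-fold (22.4 to 70.5), and of mt-Tn. The wide intervals of these 3 overlapped. The other tRNA genes with at least 100 reads had between 107 and 540 reads in Dicer -/- and between 15 and 105 in Dicer f/f.

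By strand, the 11 plus-strand tRNA genes with at least 100 reads had a median ratio of 7.18 in CPM, and the 8 minus-strand genes of 14.8. As sums, plus-strand genes had 12028 reads in Dicer -/- and 4677 in Dicer f/f, 4.07-fold higher (3.93 to 4.21), and minus-strand genes 3517 reads in Dicer -/- and 364 in Dicer f/f, 15.3-fold higher (13.7 to 17.1). Minus-strand genes thus gave 22.6% of full tRNA matches in Dicer -/- and 7.22% in Dicer f/f. mt-Th and mt-Tv, both on the plus strand, carry much of that sum. Among CCA-ended reads, minus-strand genes gave 44.6% in Dicer -/- and 30.4% in Dicer f/f.

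Which part of the tRNA the reads came from differed between the libraries. Of all tRNA reads, CCA-ended ones included, 21.7% in Dicer -/- (21.2 to 22.2) and 7.13% in Dicer f/f (6.68 to 7.60) began at the first base. Reads that end in CCA at the last base were 31.0% in Dicer -/- (30.4 to 31.6) and 58.3% in Dicer f/f (57.4 to 59.1). Reads that stop before the end and start in the 7 bases of the anticodon loop had like shares in the sum over genes, 28.3% in Dicer -/- (27.7 to 28.9) and 28.9% in Dicer f/f (28.1 to 29.7). Of these, mt-Th gave 48.9% in Dicer -/- and 62.4% in Dicer f/f. Its full matches had 36 nt in 96.8% and 99.4% of cases, a length that can come from a longer fragment. Other internal reads were 16.6% in Dicer -/- and 5.09% in Dicer f/f. The share of first-base reads was higher in Dicer -/- in 18 of the 22 genes and lower in 3, and in mt-Th there was none in either library.

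The anticodon-loop starts were concentrated in few genes. mt-Th gave 3198 such reads in Dicer -/- and 2226 in Dicer f/f, and mt-Tv 1695 and 1022. Together with mt-Td, which had 313 in Dicer -/- and 129 in Dicer f/f, they made up most of the class. mt-Te had 298 such reads in Dicer -/- and 31 in Dicer f/f. First-base reads came above all from mt-Ts2, with 2606 in Dicer -/- and 599 in Dicer f/f, CCA-ended reads included. mt-Tm had 704 in Dicer -/- and 50 in Dicer f/f, mt-Tn 384 and 11, and mt-Ts1, the other serine tRNA, 376 and 42. Of all first-base reads 19.5% in Dicer -/- and 14.2% in Dicer f/f ended in the anticodon loop. The anticodon loop was chosen as a feature after the values had been seen.

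**Figure D5:**
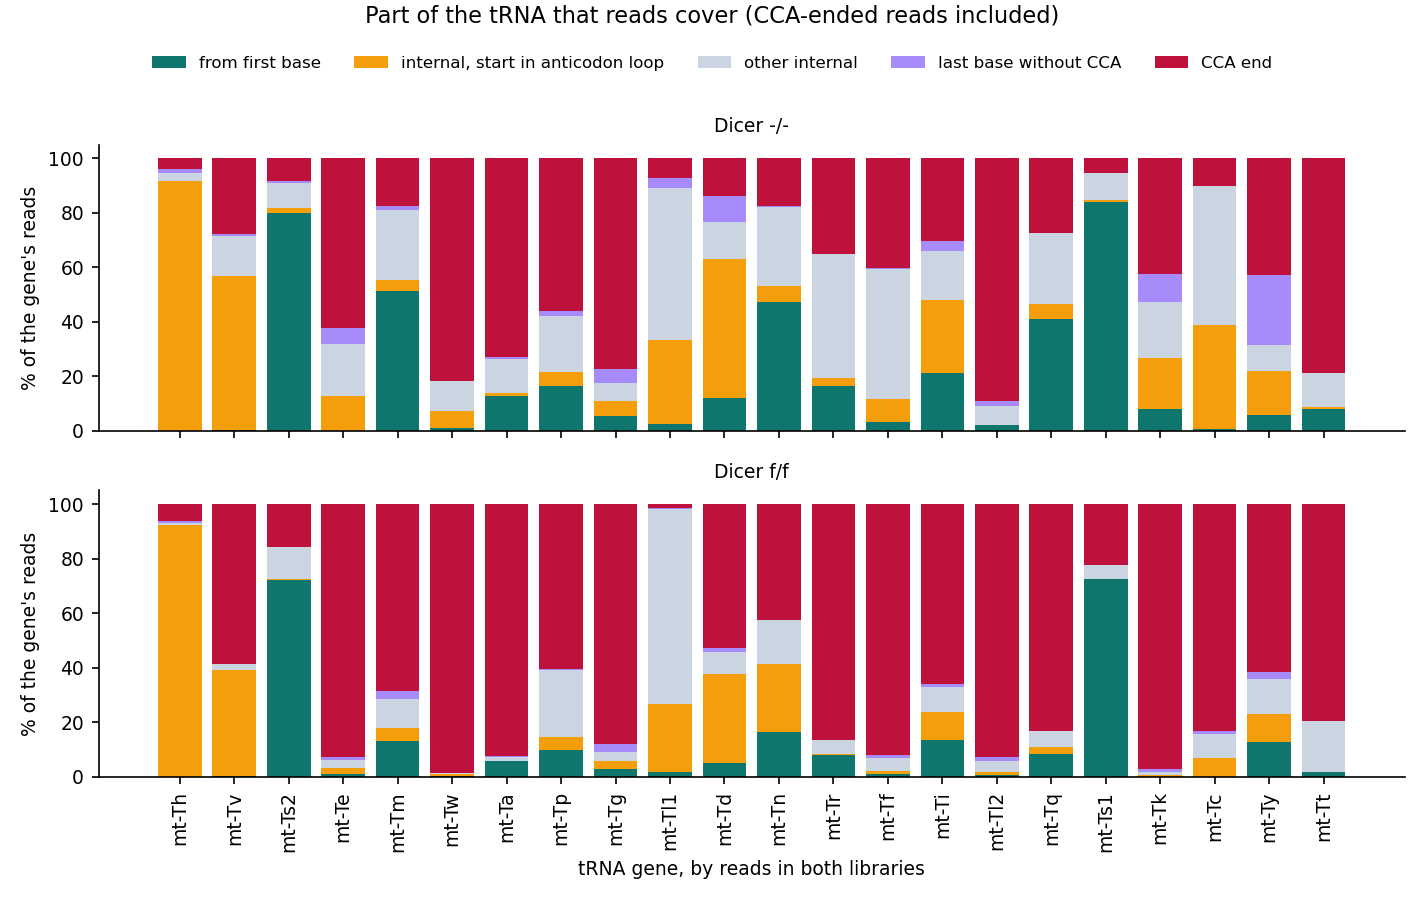
Share of each tRNA gene's reads (%) by the part of the tRNA they cover, Dicer -/- above and Dicer f/f below, with genes ordered by reads in both libraries; colours mark reads from the first base, internal reads from the anticodon loop, other internal reads, reads that stop at the last base, and reads ending in CCA. mt-Th and mt-Tv stand out for anticodon-loop starts and mt-Ts2 and mt-Ts1 for first-base reads in both libraries; in all but mt-Tl1 the share that ends in CCA at the last base is larger in Dicer f/f.

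CCA-ended reads at the last base of a gene mark tRNAs that had received their 3′ CCA. All CCA-ended reads together numbered 7539 (1198 CPM) in Dicer -/- and 7303 (734 CPM) in Dicer f/f, 1.63-fold higher (1.58 to 1.69), below the ratios of rRNA, full tRNA matches and coding fragments. They were 32.7% of full and CCA-ended tRNA reads in Dicer -/- (32.1 to 33.3) and 59.2% in Dicer f/f (58.3 to 60.03). In 21 of 22 genes the share was lower in Dicer -/-; the exception was mt-Tl1, at 36.2% in Dicer -/- and 31.2% in Dicer f/f. Of its CCA-ended reads only 65 of 317 in Dicer -/- and 3 of 70 in Dicer f/f ended at the last base of the gene. Over all genes 94.9% in Dicer -/- and 98.5% in Dicer f/f did. The annotated mt-Ty gene itself ends in CCA, so a read that stops at its last base, without an added CCA, also ends in these letters.

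The genes differed widely in these reads. mt-Tw (tryptophan; 4950 to 5016, plus strand) had 306 CCA-ended reads in Dicer -/- and 1327 in Dicer f/f, 0.364 of the Dicer f/f level in CPM (0.321 to 0.413). It was the 1 gene more than 2-fold lower in Dicer -/- among the 21 with at least 100 CCA-ended reads, of which 11 were more than 2-fold higher and 9 within 2-fold. Among all genes with at least 100 reads, 6.54% were more than 2-fold lower in CPM and 79.0% higher. The read shown above had 64 copies in Dicer -/- and 377 in Dicer f/f. mt-Te had 1465 CCA-ended reads in Dicer -/- and 1338 in Dicer f/f, 1.73-fold higher (1.61 to 1.86), and its 22-nt read shown above 239 and 277 copies.

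mt-Tv had 842 CCA-ended reads in Dicer -/- and 1540 in Dicer f/f, 0.864 of the Dicer f/f level (0.794 to 0.940), while its full matches were higher. mt-Tp (proline) stood at the other side, with 700 CCA-ended reads in Dicer -/- and 168 in Dicer f/f, 6.58-fold higher (5.56 to 7.84). mt-Tg (glycine) had 849 in Dicer -/- and 299 in Dicer f/f, 4.49-fold higher (3.93 to 5.14), and mt-Ta (alanine) 783 and 494, 2.50-fold higher (2.23 to 2.81).

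Shorter tails took a larger share in Dicer -/-. Reads with C or CC after the last base numbered 457 and 648 in Dicer -/- and 135 and 170 in Dicer f/f. They were 13.4% of reads with C, CC or CCA in Dicer -/- (12.7 to 14.1) and 4.07% in Dicer f/f (3.63 to 4.54). Longer tails of CCA followed by C, CT or CTG gave 1354 reads in Dicer -/- and 1136 in Dicer f/f, and these were not counted as CCA-ended. Whether letters left by trimming enter the C and CC tails or these longer tails was not tested. Tails were examined after their values had been seen.

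The 13 coding genes encode subunits of the respiratory chain and of ATP synthase. All had more fragments in Dicer -/- in CPM, and 10 of 13 were more than 2-fold higher per snoRNA and snRNA read, where 11.4% of all genes with at least 100 reads were. Complex V (mt-Atp6, mt-Atp8) had 1208 reads in Dicer -/- and 112 in Dicer f/f, 17.05-fold higher (14.04 to 20.9). Complex IV (mt-Co1, mt-Co2, mt-Co3) had 2446 in Dicer -/- and 287 in Dicer f/f, 13.5-fold higher (11.9 to 15.3). Complex I (7 mt-Nd genes) had 2623 in Dicer -/- and 414 in Dicer f/f, 10.0-fold higher (9.02 to 11.1), and complex III (mt-Cytb) 558 in Dicer -/- and 89 in Dicer f/f, 9.91-fold higher (7.91 to 12.5). The intervals of complexes V and IV overlapped, as did those of complexes IV and III and of complexes I and III.

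mt-Co1, the catalytic subunit of cytochrome c oxidase (5328 to 6872, plus strand), had most coding reads, 1326 in Dicer -/- and 143 in Dicer f/f, 14.7-fold higher (12.3 to 17.5). They were spread over 452 distinct sequences in Dicer -/- and 92 in Dicer f/f, and 2 in Dicer -/- and 0 in Dicer f/f began at the first base. mt-Atp8, a small subunit of ATP synthase (7766 to 7969, plus strand), had 815 reads in Dicer -/- and 66 in Dicer f/f, 19.5-fold higher (15.2 to 25.5), the highest ratio of the class. Of these, 746 in Dicer -/- and 61 in Dicer f/f began at its first base, the A of the start codon. The first 60 bases are shown with the leading read in capitals, a 36-nt read with 413 copies in Dicer -/- and 34 in Dicer f/f.
mt-Atp8: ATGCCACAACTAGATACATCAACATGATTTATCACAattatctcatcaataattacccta
Per length, mt-Atp8 stood highest of the coding genes, at 635 CPM per kb in Dicer -/- and 32.5 in Dicer f/f, and mt-Nd4l next, at 216 and 25.1. mt-Co1 had 136 CPM per kb in Dicer -/- and 9.31 in Dicer f/f.

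mt-Co2 had 711 reads in Dicer -/- and 73 in Dicer f/f, 15.4-fold higher (12.1 to 19.9), with 163 and 30 from the first base. mt-Nd1 had 667 reads in Dicer -/- and 72 in Dicer f/f, 14.6-fold higher (11.5 to 18.9). Its first-base reads, 16 in Dicer -/- and 18 in Dicer f/f, did not share that ratio, while its most frequent start by the sum of both libraries, base 580, had 77 reads in Dicer -/- and 1 in Dicer f/f. mt-Cytb had 558 reads in Dicer -/- and 89 in Dicer f/f. The lowest ratios of the class were those of mt-Nd3, 5.03 (3.23 to 8.07; 86 reads in Dicer -/-, 27 in Dicer f/f), mt-Nd2, 7.45 (5.80 to 9.67; 358 and 76), and mt-Nd5, 8.24 (6.59 to 10.4; 485 and 93). mt-Nd4, at 17 (12.3 to 24.02; 441 in Dicer -/- and 41 in Dicer f/f), stood next below mt-Atp8, and mt-Co2 after it.

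mt-Nd6, the single coding gene on the minus strand, had 183 reads in Dicer -/- and 31 in Dicer f/f, 9.33-fold higher (6.35 to 14.1). Of these, 91 in Dicer -/- and 3 in Dicer f/f began at its first base. In 7 of 13 coding genes the first base was the most frequent start by reads summed over both libraries: mt-Atp8, mt-Co2, mt-Nd2, mt-Nd3, mt-Nd4l, mt-Nd5 and mt-Nd6. Over the class, first-base reads were 20.2% in Dicer -/- (19.3 to 21.2) and 22.7% in Dicer f/f (20.03 to 25.6). mt-Atp6, mt-Nd4 and mt-Cytb had at most 1 such read in either library; mt-Atp6 and mt-Nd4 overlap the gene before them on the same RNA.

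Part of the coding reads cannot be assigned to the mitochondrion from their letters. Of coding reads, 47.3% in Dicer -/- and 50.3% in Dicer f/f also matched a nuclear gene of the annotation, mostly pseudogene copies of mitochondrial DNA on chromosomes 1 and 2. For mt-Co2, mt-Co3 and mt-Nd4l all reads in both libraries did, and for mt-Atp6 98.5% in Dicer -/- and 100% in Dicer f/f, whereas for mt-Atp8 it was 1.10% in Dicer -/- and 1.52% in Dicer f/f. Among rRNA reads the share was 0.336% in Dicer -/- and 0.288% in Dicer f/f, and among tRNA reads 4 reads in Dicer -/- and 0 in Dicer f/f. Only 4 sequences lay in 2 mitochondrial genes, with 9 reads in Dicer -/- and 1 in Dicer f/f.

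Reads antisense to the 37 genes, which are no members, numbered 3132 in Dicer -/- and 847 in Dicer f/f, 5.84-fold higher in CPM (5.41 to 6.31). They were 0.155% of sense and antisense reads of rRNA genes in Dicer -/- and 0.2502% in Dicer f/f. For tRNA genes the share was 8.31% in Dicer -/- and 7.67% in Dicer f/f, and for coding genes 19.1% in Dicer -/- (18.2 to 19.9) and 30.1% in Dicer f/f (27.6 to 32.7). The tRNA genes with most were mt-Tp, with 482 in Dicer -/- and 141 in Dicer f/f, and mt-Tq, with 323 and 148. They were counted after the values had been seen.

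Nuclear genes of the same pathway were described by mRNA fragments, which had few reads. Of 24 genes for mitochondrial RNA synthesis, processing and decay, 23 were in the annotation used, and they had 735 reads in Dicer -/- and 304 in Dicer f/f. Of these, 7 had at least 20 reads, and 6 of the 7 were more than 2-fold higher in CPM in Dicer -/-, where 78.2% of all genes with as many reads were higher and 4.85% lower. Angel2, which encodes a phosphatase of RNA 3′ ends, had 314 reads in Dicer -/- and 158 in Dicer f/f, and Grsf1, which encodes an RNA-binding protein of mitochondrial RNA granules, 49 and 65. Elac2 had 4 reads in Dicer -/- and 6 in Dicer f/f and Trnt1 6 and 2, too few to set apart.

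Of 78 genes for mitochondrial ribosomal proteins, 36 had at least 20 reads and 30 of the 36 were more than 2-fold higher in CPM, against 78.2% of all genes with as many reads, with 8344 reads in all in Dicer -/- and 2866 in Dicer f/f. Of 82 nuclear genes for respiratory chain subunits, 32 had at least 20 reads and 30 of the 32 were more than 2-fold higher, with 5491 reads in Dicer -/- and 1505 in Dicer f/f. Per snoRNA and snRNA read, 2 of the 36 and 12 of the 32 were more than 2-fold higher, against 21.3% of all genes with at least 20 reads, and 23.1% of those were lower. The sum for respiratory chain subunits was 1.34-fold higher on that scale (1.27 to 1.42), against 2.79-fold for the coding genes of the mitochondrial genome.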

How the data were processed

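The authors deposited raw counts: for each library, a list of distinct sequences and how often each was read, without genes or positions. Per the labels' protocols, a denaturing 15% gel was used to isolate RNA between 15 and 50 nt, which was cloned for Illumina sequencing. The build mm9 is named in the submitters' processing notes; the trimming tool and aligner are not given in those sources. Reads were 5 to 36 nt long; 0 reads had 35 nt in either library, so lengths near the limit may reflect trimming.

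Reads of at least 18 nt (5265872 in Dicer -/-, 9133899 in Dicer f/f) were matched, in sense and with no mismatch, to every transcript of GENCODE M21; coordinates are GRCm38. A read counted once per class. CCA-ended reads needed at least 15 nt of match before CCA. The anticodon loop was the anticodon with 2 bases on each side. No nuclear tRNA set and no genome sequence was used. CPM were counts over all reads in the file. Counts carry exact Poisson, shares exact Clopper-Pearson and ratios exact conditional 95% intervals. Called means past 2-fold. With 1 library per genotype, clones and replicates could not be compared.

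All 37 genes were accounted for. Values were given in full for both rRNAs, the 8 tRNA and 5 coding genes with most reads, and the 3 highest and 3 lowest ratios per class; other genes were singled out once their values were known. The members and lists were chosen with earlier results of these data known. Alternatives changed the scale, length window, copy number, matching rule and minimum count. The matching and intervals were tested on simulated data. Python 3.11.15, numpy 2.4.6, pandas 2.3.3, scipy 1.17.1, numba 0.67.0 and matplotlib 3.10.9 were used.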

Additional observations from a re-analysis of the deposited data

How the results depend on the processing

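The log2 ratios of rRNA, full tRNA matches and coding fragments stayed above 0 under the alternatives run. For full tRNA matches per nuclear mRNA or lncRNA read, the interval of the log2 ratio, -0.027 to 0.065, included 0. Full and CCA-ended tRNA reads together were lower in Dicer -/- on some scales. They stood at 0.687 of their Dicer f/f level per snoRNA and snRNA read and at 0.614 per nuclear mRNA or lncRNA read. CCA-ended tRNA reads went from 1.63 times their Dicer f/f level in CPM to 0.379 per snoRNA and snRNA read, and mt-Th from 2.34 to 0.544. The rRNA log2 ratio, 2.82 in CPM, was 0.72 per snoRNA and snRNA read, 1.49 per read in no miRNA hairpin, 0.56 per nuclear mRNA or lncRNA read, 2.20 for 18 to 23 nt, 3.21 for 24 nt or more, 2.69 without 36-nt reads, 2.88 for sequences seen at least 2 times, 0.17 for distinct sequences, 2.92 with 1 mismatch allowed and 3.19 without first-base reads (added after the data were seen). The tRNA log2 ratio, 2.29, was 0.18, 0.95 and 0.019 on the same 3 scales, 3.17 for 18 to 23 nt, 2.08 for 24 nt or more, 2.96 without 36-nt reads, 0.45 for distinct sequences, 2.45 with 1 mismatch and 1.56 with CCA-ended reads added (after the data were seen). The coding log2 ratio, 3.58, was 1.48, 2.25 and 1.32 on those scales, 4.13 for sequences seen at least 2 times and 0.75 for distinct sequences. Of the mitochondrial genes that reached the minimum, 34 of 34 were more than 2-fold higher in CPM, 20 of 34 per nuclear mRNA or lncRNA read, 22 of 22 among reads of 18 to 23 nt and 4 of 17 in distinct sequences. Among all genes with at least 100 reads, 79.0% were higher in CPM and 8.99% per nuclear mRNA or lncRNA read. No such share was taken for the length window or for distinct sequences, so those counts stand without a reference. The CCA-ended share in Dicer -/-, 32.7%, was 52.3% for 18 to 23 nt, 21.7% for 24 nt or more, 41.4% without 36-nt reads, 21.1% of distinct sequences, 31.5% with CCA at the last base only and 25.95% with a match of at least 18 nt. In Dicer f/f it was 59.2%, and 86.7%, 39.0%, 78.1%, 42.2% and 51.8% under the same settings other than CCA at the last base only, where it moved little. In each of these settings the share was lower in Dicer -/-. Distinct sequences drop all copy numbers, and the scales differ by their denominators; other causes were not tested. No paired analysis was possible because each genotype had 1 library, and for the same reason no replicate could be left out. Depth limits the coding and minus-strand tRNA genes, of which several had under 50 reads in Dicer f/f.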
